A study of Gallus gallus with 16 samples.

Results

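The step from 1 to 2 mM metformin was followed in the primary chicken ovarian cancer (COVCAR) lines named C5, C7, C9 and C11 by setting the 2 mM library of each line against its 1 mM library. These are 8 of the 16 RNA libraries of the series, 4 at 2 mM and 4 at 1 mM, chosen by the dose and the line in their labels. The lines were grown from the ascites (body cavity fluid) of 4 Hy-Line W-36 hens with ovarian endometrioid adenocarcinoma. The library names read P2 for C11 and P3 for the others, taken here as passage 2 and passage 3. The methods of the study speak of cells at 1 to 2 passages. At both doses the cells spent 24 h without serum on ultra-low attachment plates, in X-VIVO 20 medium with bovine insulin and human epidermal growth factor, so these are also shared by the groups. Each line is 1 hen, and there was 1 library per line and dose, so that n = 4 lines per dose, and each SE below comes from the fit over these lines. The hens were beyond the age of peak laying. How the triplicate wells of a treatment became 1 library is not given in the sources used here.

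Metformin is a biguanide used against type 2 diabetes. It inhibits complex I of the mitochondrial respiratory chain, which lowers ATP and raises AMP, and AMP-activated protein kinase (AMPK) senses that change. Active AMPK phosphorylates and restrains acetyl-CoA carboxylase, the first enzyme of fatty acid synthesis, and dampens mTOR signaling, and cells short of respiratory ATP draw more on glycolysis. The comparison asks what the higher dose adds, beyond the lower one, to the transcriptome.

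Of 23910 annotated genes, 13391 had enough counts to be tested, and 0 of them (0%) were differentially expressed between 2 and 1 mM metformin in edgeR's quasi-likelihood test with the line as a block (unadjusted p under 0.01 and Benjamini-Hochberg adjusted p under 0.05). The smallest adjusted p was 0.999, and every tested gene named below has that value. DESeq2 and limma-voom with the same block also called 0 genes. At an unadjusted p under 0.05 there were 258 genes (1.93% of those tested) in edgeR, 550 in DESeq2 and 308 in limma-voom. In edgeR, 107 of the 258 genes were higher at 2 mM (0.799%) and 151 lower (1.13%). Consequently no gene below is reported as changed, and the values show in how many lines it was higher or lower. Levels are in CPM (counts scaled to library size, with TMM factors), given in the order C5, C7, C9 and C11. An exact test that flips the signs of 4 line differences cannot give a two-sided p below 0.125.

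The size of the step differed between lines. Over the 10593 tested genes whose mean count reached 100, the median absolute difference between the 2 and 1 mM libraries was (in log2 units) 0.704 for C5, 0.446 for C7, 0.250 for C9 and 0.153 for C11. A log2 difference over 1 in either direction was found for 3603 genes in C5 (34.0%), for 1768 in C7 (16.7%), for 699 in C9 (6.60%) and for 118 in C11 (1.11%). C11 thus had the smallest differences and C5 the largest, and the part of passage in this was not tested. The deviations of a line's libraries from their dose means correlated at −0.141 in C5 and 0.161 in C7. In C9 and C11 these values were 0.703 and 0.713, and between lines they ran from −0.624 to 0.645. The pairing was thus not borne out for C5 and C7, and its part in their larger differences was not tested. The differences of all these genes in 1 line correlated with those in another at r from −0.236 to 0.154 over the 6 pairs of lines, a description over genes with no test. Across all tested genes, 800 (5.97%) were higher at 2 mM in 4 of 4 lines and 796 (5.94%) were lower in 4 of 4.

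**Figure D1:**
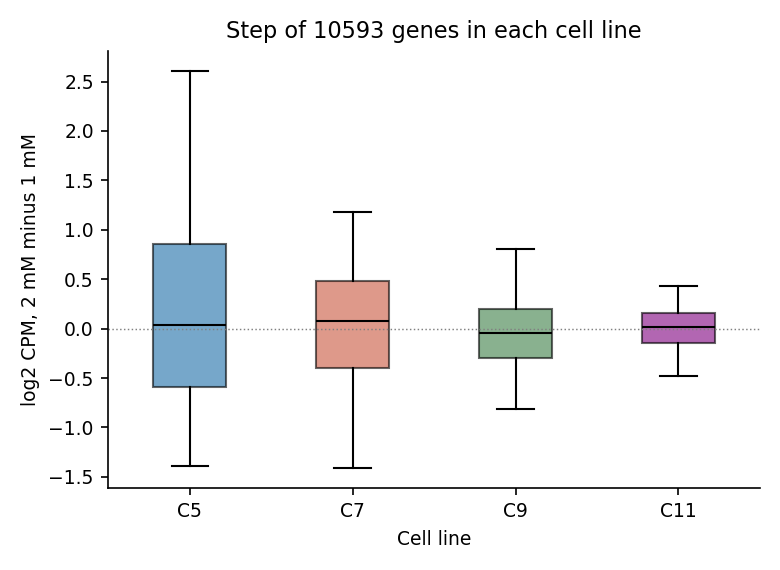
Difference between the 2 mM and the 1 mM library of each cell line, in log2 CPM, over 10593 genes. Boxes run from the 25th to the 75th percentile with the median as a line, and whiskers end at the 5th and 95th percentiles. The spread is widest in C5, where the 95th percentile is 2.61, and narrowest in C11, where it is 0.43.

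The C5 pair also differed in how counts depended on gene length. The slope of centred log2 CPM on log2 exonic length was 0.256 at 2 mM and −0.170 at 1 mM in C5, so long genes had relatively more counts at 2 mM. The 2 slopes of a line differed by 0.426 in C5, against differences from −0.0843 to 0.0101 in C7, C9 and C11. Total counts were 34724071 to 37265967 per library at 2 mM and 35553462 to 42531887 at 1 mM. The part of the length slope in the C5 values was not tested. A fit with the slope as a covariate called 0 genes and had 395 at an unadjusted p under 0.05. With the line as a block that covariate acts mostly through the C5 pair. The fit therefore cannot separate the length slope from other differences within that pair.

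The libraries were checked against markers of the cells they are labelled as. EPCAM and the tight junction gene CLDN3, which mark epithelial cells, were near 0 and too low to be tested, with at most 0.16 CPM at 2 mM and 0.37 CPM at 1 mM for EPCAM and 0.14 and 0.11 CPM for CLDN3. The epithelial cadherin gene CDH1 had 0.49 to 5.78 CPM at 2 mM and 0.61 to 6.63 CPM at 1 mM, while the keratin gene KRT7 was plentiful at 243 to 803 CPM at 2 mM and 319 to 744 CPM at 1 mM. On the same list, KRT18 had 0.25 to 18.2 CPM at 2 mM and 0.63 to 28.1 CPM at 1 mM. WT1 had 1.53 to 6.23 and 1.90 to 21.1 CPM, and MSLN 7.16 to 12.9 and 4.96 to 12.9 CPM. ESRP1 had at most 0.05 and 0.16 CPM and was not tested. The fibroblast markers had a summed level of 9839 to 31736 CPM at 2 mM and 8086 to 59574 CPM at 1 mM, with 10 of 10 tested. EPCAM, CLDN3 and ESRP1 were thus nearly absent, while KRT7, MSLN and the fibroblast markers by their sum were present in all 8 libraries. The lines are called COVCAR lines by their label.

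POSTN, GEM, TNFRSF6B and IL11 had the smallest p-values among genes with a symbol that were lower at 2 mM in 4 of 4 lines. These genes and those of the next paragraph were picked for that shared direction and a small p, apart from TWIST1, so the direction is no result. POSTN (chromosome 1, 173372443 to 173406135 in GRCg6a) encodes periostin, a matrix protein that binds integrins. It had 189, 40.5, 45.7 and 153 CPM at 2 mM, against 309.5, 111, 136 and 236 CPM at 1 mM (log2 fold change −1.11, SE 0.24). IL11 (chromosome 22, 3602509 to 3608251), a cytokine of the interleukin 6 family, had 2.27, 3.61, 1.40 and 13.6 CPM at 2 mM, against 4.48, 14.5, 6.26 and 23.4 CPM at 1 mM (log2 fold change −1.49, SE 0.35). Within each line the 2 mM library was lower for both genes, although the levels of the groups overlap. TNFRSF6B (chromosome 20, 9650082 to 9655443), the decoy receptor that binds Fas ligand, had 199, 423, 298 and 382 CPM at 2 mM, against 375, 1134, 471 and 622 CPM at 1 mM (log2 fold change −0.94, SE 0.22). ANGPTL2, a secreted angiopoietin-like protein, had 96.0, 88.8, 127 and 41.6 CPM at 2 mM, against 146, 201, 173 and 72.7 CPM at 1 mM (log2 fold change −0.78, SE 0.20). The protease gene PLAU, which encodes urokinase, had 2.98, 3.85, 6.17 and 30.9 CPM at 2 mM, against 15.1, 11.5, 19.2 and 32.3 CPM at 1 mM (log2 fold change −1.43, SE 0.41). Its C11 pair was nearly level, and the other 3 lines were clearly lower at 2 mM.

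GEM (chromosome 2, 125926904 to 125935308), a small GTPase that inhibits voltage-gated calcium channels, had 209.8, 325, 172 and 172 CPM at 2 mM, against 492, 543, 403 and 236 CPM at 1 mM (log2 fold change −0.93, SE 0.22). LMCD1, a LIM domain cofactor of transcription, had 40.1, 102, 50.7 and 51.2 CPM at 2 mM, against 95.7, 222, 76.5 and 72.9 CPM at 1 mM (log2 fold change −0.89, SE 0.22). KLF2, a zinc finger transcription factor of the immediate early list, had 32.9, 56.3, 27.9 and 32.4 CPM at 2 mM, against 64.5, 182, 47.0 and 43.4 CPM at 1 mM (log2 fold change −0.98, SE 0.26). C7 had the highest KLF2 level at 1 mM, and the fold change without C7 was −0.72. DUSP26, a dual-specificity phosphatase, had 2.14, 4.81, 0.636 and 8.94 CPM at 2 mM, against 4.30, 17.6, 3.78 and 14.5 CPM at 1 mM (log2 fold change −1.53, SE 0.40). RASA4B, a Ras GTPase-activating protein, had 12.6, 12.8, 8.64 and 24.6 CPM at 2 mM, against 31.7, 31.1, 14.7 and 34.2 CPM at 1 mM (log2 fold change −0.98, SE 0.26). The DUSP26 levels of the groups overlap, and C11 was the highest line at 2 mM for both of these genes. OC3, the last of the 12 lower genes with a symbol, had 0.493, 2.86, 2.12 and 2.22 CPM at 2 mM, against 0.758, 4.81, 12.1 and 8.45 CPM at 1 mM (log2 fold change −1.50, SE 0.44). TWIST1, a transcription factor of epithelial to mesenchymal transition (EMT), had 31.3, 37.8, 29.4 and 28.3 CPM at 2 mM, against 55.0, 84.6, 37.0 and 38.5 CPM at 1 mM (log2 fold change −0.71, SE 0.23), and it was the member of the EMT list with the smallest p. Of 19 EMT genes tested, 14 were lower and 5 higher, with a median log2 fold change of −0.10 against −0.01 for all genes tested, and 1 had an unadjusted p under 0.05. Their line medians were −0.18 (C5), −0.52 (C7), 0.07 (C9) and −0.11 (C11).

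**Figure D2:**
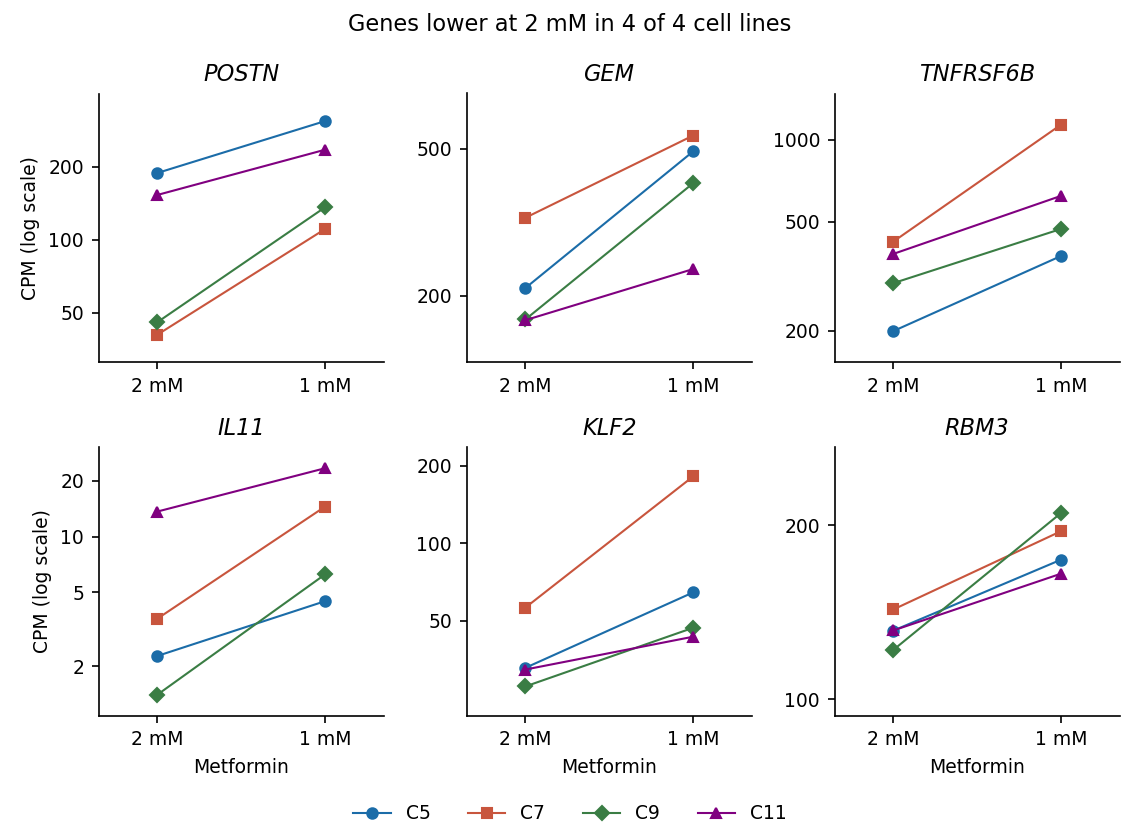
Level of 6 genes in CPM (log axis) at 2 mM (left) and 1 mM (right) metformin, 1 point per library and 1 line per cell line. In each panel the lines of C5, C7, C9 and C11 slope upward to the right, and only for RBM3 do the 2 mM points (122 to 143 CPM) lie wholly below the 1 mM points (165 to 210.0 CPM).

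For a few genes the levels of the groups did not overlap at all, so that every 2 mM library was on the same side of every 1 mM library. This held for 98 genes lower at 2 mM (0.732% of those tested) and 69 higher (0.515%). RBM3 (chromosome 28, 3176587 to 3182020), an RNA-binding protein induced by cold, was among the lower ones with 131, 143, 122 and 132 CPM at 2 mM, against 174, 195, 210.0 and 165 CPM at 1 mM (log2 fold change −0.51, SE 0.18). The 2 mM levels lay in a narrow band below all of the 1 mM levels. RBM3 and MCEE had been named by earlier results of the same series. MCEE, the methylmalonyl-CoA epimerase of propionate breakdown, had 1.20, 1.23, 1.25 and 1.85 CPM at 2 mM, against 3.44, 2.13, 2.94 and 3.34 CPM at 1 mM (log2 fold change −1.12, SE 0.37). FKBP5, a cochaperone of the glucocorticoid receptor, had 51.3, 52.8, 27.8 and 43.9 CPM at 2 mM, against 136, 58.9, 72.5 and 73.5 CPM at 1 mM (log2 fold change −0.94, SE 0.27). The C7 pair of FKBP5 was close, and the other lines set the distance. FKBP5 was among the genes picked for a small p and a lower level at 2 mM in every line. PDK4, the kinase that switches off pyruvate dehydrogenase, had 0.684, 0.271, 0.954 and 0.541 CPM at 2 mM, against 1.83, 5.49, 2.21 and 1.12 CPM at 1 mM (log2 fold change −1.91, SE 0.67), at counts of 9 to 36 per library at 2 mM and 42 to 250 at 1 mM. PDK4 was low throughout, and C7 at 1 mM was its highest library. Without C7 the log2 fold change of PDK4 was −1.23. ANGPT1, the angiopoietin that activates the TEK receptor, had 2.33, 1.86, 1.51 and 1.34 CPM at 2 mM, against 4.45, 2.92, 5.08 and 2.46 CPM at 1 mM (log2 fold change −1.07, SE 0.37). PDK4 and ANGPT1 were picked for a small p on their lists, so their lack of overlap is no result.

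ANGPT2, the angiopoietin that opposes ANGPT1 at the same receptor in many settings, was higher at 2 mM in 4 of 4 lines. It was picked for that shared direction and a small p, and earlier results of the series had also named it, so the direction is no result. It had 101, 6.17, 53.5 and 24.4 CPM at 2 mM, against 13.7, 4.94, 6.48 and 14.8 CPM at 1 mM (log2 fold change 1.73, SE 0.56). The difference was largest in C5 and C9 (2.88 and 3.04 log2 units), against 0.32 in C7 and 0.73 in C11. The C11 value lay above the 95th percentile of the differences in that line (0.43). It is one of the values by which ANGPT2 was picked, so this is no result either. Of 27 angiogenesis genes tested, 20 were higher and 7 lower, with a median log2 fold change of 0.12, and the per-line medians were 0.93 (C5), −0.64 (C7), 0.31 (C9) and 0.20 (C11). ANGPT1 and ANGPT2 were the 2 members with an unadjusted p under 0.05.

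ACSBG2, SCD, GPAT3 and SELENOI were among the genes picked for the smallest p-values and a higher level at 2 mM in 4 of 4 lines. They are set together here after their values were seen, and only SCD is on the list of fatty acid synthesis. ACSBG2 (chromosome 28, 1746737 to 1763012), which joins long-chain fatty acids to coenzyme A, had 886, 858, 185 and 637 CPM at 2 mM, against 399, 230.1, 89.4 and 444 CPM at 1 mM (log2 fold change 1.13, SE 0.27). SCD (chromosome 6, 18321285 to 18340590), the stearoyl-CoA desaturase that makes monounsaturated fatty acids, had 1422, 1463, 494 and 719.9 CPM at 2 mM, against 988, 239.5, 140.2 and 521 CPM at 1 mM (log2 fold change 1.33, SE 0.42). The SCD difference was much larger in C7 and C9 than in C5 and C11. GPAT3, which starts triglyceride synthesis from glycerol 3-phosphate, had 191, 111, 191 and 185 CPM at 2 mM, against 149.9, 74.9, 108 and 128 CPM at 1 mM (log2 fold change 0.55, SE 0.18). SELENOI, the selenoprotein that makes phosphatidylethanolamine, had 212, 219, 191 and 155 CPM at 2 mM, against 125, 116, 124 and 142 CPM at 1 mM (log2 fold change 0.59, SE 0.20), with no overlap between the groups, as held for 0.515% of all genes tested.

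Cholesterol synthesis genes were higher at 2 mM in C5, C7 and C9 and lower in C11. Of 19 tested members of the list, 18 had a higher fitted level at 2 mM and 1 a lower one, and the median log2 fold change was 0.72 against −0.01 for all genes tested. At an unadjusted p under 0.05 there were 8 members, all higher, or 42.1% of the list beside 0.799% of all genes. In C7 19 of 19 members were higher at 2 mM, in C9 18 and in C5 17, with medians of 1.56, 0.93 and 0.67. In C11 0 of 19 were higher, and the differences there lay between −0.80 and −0.08. The share of all tested genes that was higher at 2 mM was 52% for C5, 50.3% for C7, 46.7% for C9 and 51.7% for C11. With size factors by RLE or library totals alone in place of TMM, the count in C11 was still 0, and the counts in C5 were 16 and 18.

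SQLE (chromosome 2, 138683095 to 138697225), the squalene epoxidase that commits squalene to sterols, had 299, 262, 137 and 92.6 CPM at 2 mM, against 132, 89.1, 57.9 and 99.4 CPM at 1 mM (log2 fold change 0.96, SE 0.30). STARD4, a carrier of cholesterol between membranes, had 122, 43.1, 32.5 and 17.2 CPM at 2 mM, against 27.7, 15.5, 13.0 and 19.6 CPM at 1 mM (log2 fold change 1.19, SE 0.39). INSIG1, which holds the sterol sensor SCAP in the endoplasmic reticulum, had 256, 132, 78.4 and 53.6 CPM at 2 mM, against 127, 54.6, 42.1 and 56.5 CPM at 1 mM (log2 fold change 0.76, SE 0.26). SQLE, STARD4 and INSIG1 had the smallest p of the list, and each was higher at 2 mM in C5, C7 and C9 and slightly lower in C11. HMGCS1, which makes the precursor of mevalonate and was picked after its values were seen, had 467, 209, 145 and 53.1 CPM at 2 mM, against 104, 51.0, 98.4 and 63.1 CPM at 1 mM (log2 fold change 1.12, SE 0.44). The count of 8 rested on every one of C5, C7 and C9, since it was 1, 0 and 1 when each was left out, and 13 without C11. It was 4 without the block and 5 with the length slope as a covariate.

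The fatty acid synthesis list was also higher in C5, C7 and C9 by its medians and lower in C11. Of 13 members tested, 12 were higher, 1 had an unadjusted p under 0.05, and the median was 0.51, with line medians of 0.84 (C5), 0.77 (C7), 0.26 (C9) and −0.11 (C11). FASN, the fatty acid synthase, had 1369.5, 659, 665 and 273 CPM at 2 mM, against 306, 221, 487 and 325 CPM at 1 mM (log2 fold change 0.97, SE 0.42). ACLY, which supplies it with acetyl-CoA from citrate, had 717, 586, 256 and 237 CPM at 2 mM, against 318, 154, 221 and 250.3 CPM at 1 mM (log2 fold change 0.78, SE 0.36). The log2 fold change of FASN was 0.58 without C5, and that of ACLY 0.43 without C7. In both, C11 was the line with a lower level at 2 mM. Fatty acid oxidation showed no such pattern, with 8 of 14 members higher, a median of 0.02 and 0 at an unadjusted p under 0.05. VLDLR, a lipoprotein receptor, had 320.1, 73.5, 339.9 and 133 CPM at 2 mM, against 127, 65.0, 113 and 139.9 CPM at 1 mM (log2 fold change 0.74, SE 0.33), and its levels were far apart only in C5 and C9. VLDLR was picked for a small p on the list of the integrated stress response and is not on that of fatty acid synthesis. Without C9 its log2 fold change was 0.45.

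**Figure D3:**
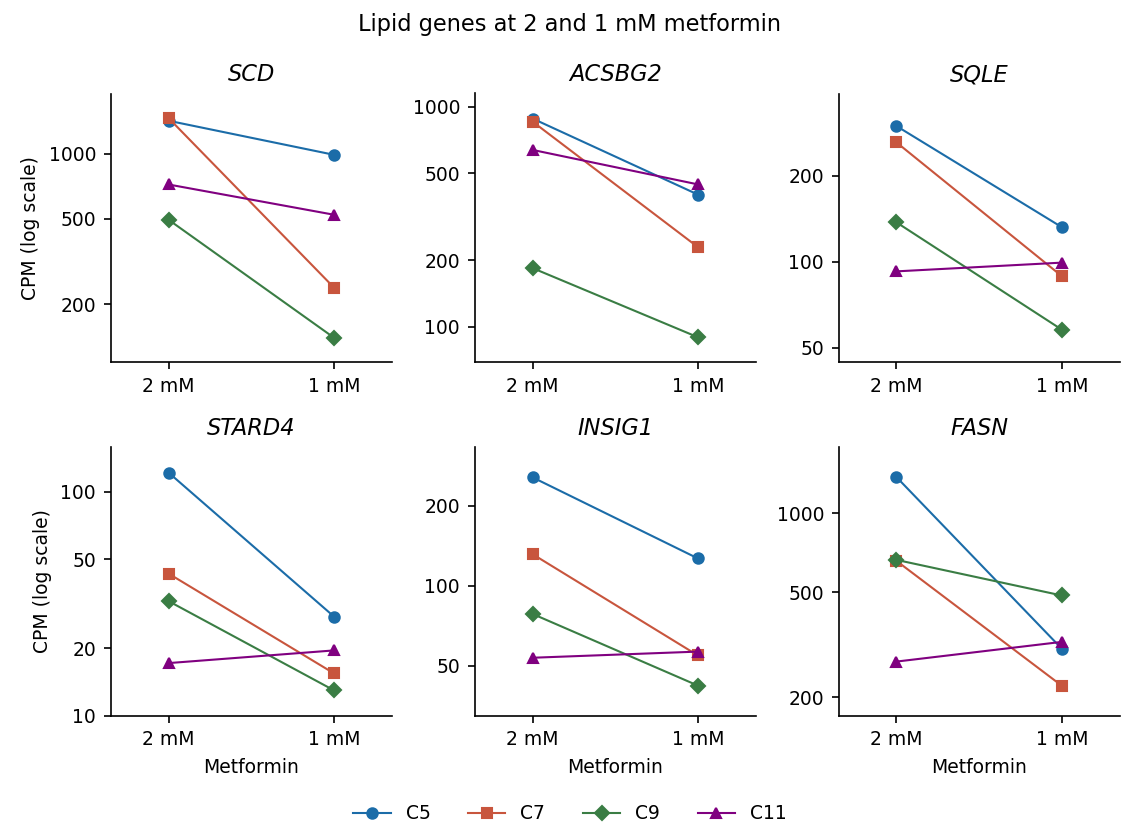
Level of 6 lipid genes in CPM (log axis) at 2 mM (left) and 1 mM (right) metformin, 1 point per library and 1 line per cell line. SCD and ACSBG2 are higher at 2 mM in C5, C7, C9 and C11, while SQLE, STARD4, INSIG1 and FASN are higher in C5, C7 and C9 and slightly lower in C11.

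Most DNA replication and mitosis genes had a higher fitted level at 2 mM, but C11 had lower medians for both lists. Of 36 DNA replication genes tested, 33 were higher and 8 were higher in 4 of 4 lines, beside 5.97% of all genes, with a median of 0.40 and 2 at an unadjusted p under 0.05. The line medians were 0.48 (C5), 0.95 (C7), 0.30 (C9) and −0.08 (C11), and 16 of 36 were higher in C11. TK1, the thymidine kinase that salvages thymidine in S phase, had 189, 158, 161 and 95.3 CPM at 2 mM, against 135, 72.4, 114 and 84.2 CPM at 1 mM (log2 fold change 0.55, SE 0.21). Of 32 mitosis genes tested, 30 were higher and 6 were higher in 4 of 4 lines, with a median of 0.58. The line medians of the mitosis list were 0.15 (C5), 1.22 (C7), 1.36 (C9) and −0.15 (C11), and 32 of 32 members were higher in C9 against 11 of 32 in C11. AURKA, the aurora kinase of the spindle poles, had 21.4, 17.4, 9.35 and 5.53 CPM at 2 mM, against 18.4, 4.30, 2.65 and 4.54 CPM at 1 mM (log2 fold change 1.06, SE 0.42). ANLN, which anchors the contractile ring, had 59.7, 16.4, 25.5 and 5.33 CPM at 2 mM, against 19.6, 7.53, 9.91 and 6.66 CPM at 1 mM (log2 fold change 0.94, SE 0.37). KIF23, a kinesin of the central spindle, had 26.5, 16.1, 17.8 and 9.68 CPM at 2 mM, against 18.9, 9.88, 8.07 and 8.07 CPM at 1 mM (log2 fold change 0.63, SE 0.26). These were the 3 mitosis genes with an unadjusted p under 0.05. The number was 6 without C5, 1 without C7, 0 without C9 and 10 without C11, and it was 0 without the block and 10 with the length slope.

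Energy metabolism was examined because it holds the known target of the drug. Complex I subunits encoded in the nucleus had a median log2 fold change of −0.08, with 29 of 33 lower and 0 at an unadjusted p under 0.05. Their line medians were −0.78 (C5), 0.43 (C7), 0.06 (C9) and −0.05 (C11), and complexes II to V had nearly the same ones (−0.80, 0.43, 0.02 and −0.03 in that order of lines), where the C9 value turned to −0.0023 with library totals alone. Ribosomal proteins were lower in 64 of 64 members in C5 (median −0.90) and higher in 64 of 64 in C7 (median 0.43). Over the lines 59 of 64 ribosomal proteins had a lower fitted level (median −0.11). The fitted direction of these lists turned without C5, the pair whose length slopes differed. Without C5, 30 of 33 complex I genes (median 0.13), 23 of 24 of complexes II to V (0.13) and 64 of 64 ribosomal proteins (0.17) were higher at 2 mM. With the length slope as a covariate, 26 of 33 (0.06), 14 of 24 (0.03) and 57 of 64 (0.07) were higher, in place of 4, 3 and 5. That covariate acts mostly through C5, so this fit is no check apart from leaving C5 out. Without C7, 1 of 33, 0 of 24 and 0 of 64 were higher. In the mitochondrial genome, 12 of 13 genes were lower at 2 mM in C5 and 10, 12 and 13 of 13 were higher in C7, C9 and C11. Over the lines 6 of 13 had a higher fitted level (median −0.04), against 12 without C5 (0.19) and 9 with the length slope (0.09). MT-ND2, a complex I subunit encoded there, was picked for the smallest p of this list and was its only member higher in 4 of 4 lines. It had 1688, 3015, 1605 and 1686 CPM at 2 mM, against 1501, 1526, 716 and 1160.5 CPM at 1 mM (log2 fold change 0.69, SE 0.27). Every 2 mM library was above every 1 mM library, as held for 0.515% of all genes tested.

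Of 21 glycolysis genes tested, 18 were higher and 5 were higher in 4 of 4 lines, beside 5.97% of all genes, with a median of 0.21. PDK4, described above, and PFKM were the 2 members lower in 4 of 4 lines, beside 5.94% of all genes. Of the 3 members with an unadjusted p under 0.05, 2 were higher and PDK4 was lower. The line medians of the list were −0.14 (C5), 0.80 (C7), 0.55 (C9) and 0.0037 (C11). Those of C5 and C11 changed sign with the scaling, to 0.031 in C5 with library totals alone and to −0.0066 in C11 with RLE. SLC16A3, the lactate exporter, had 325, 183, 191 and 79.0 CPM at 2 mM, against 172, 93.5, 141 and 70.3 CPM at 1 mM (log2 fold change 0.61, SE 0.21). GPI, which isomerizes glucose 6-phosphate, had 907, 893, 729 and 467 CPM at 2 mM, against 763, 396, 408 and 397 CPM at 1 mM (log2 fold change 0.60, SE 0.25). LDHA, the lactate dehydrogenase subunit, picked after its values were seen, had 4085, 3115, 3506 and 1319 CPM at 2 mM, against 2883, 1454, 1605 and 1511 CPM at 1 mM (log2 fold change 0.62, SE 0.32), with C11 lower at 2 mM. The AMPK subunit and regulator genes lay near the background, with 5 of 12 higher, a median of −0.03 and 0 at an unadjusted p under 0.05, and so did the mTOR list, with 11 of 16 higher, a median of 0.11 and 0. PRKAB2, a regulatory subunit of AMPK whose exons overlap those of another gene, had 15.8, 21.4, 16.6 and 17.0 CPM at 2 mM, against 36.4, 19.4, 17.6 and 22.6 CPM at 1 mM (log2 fold change −0.41, SE 0.30). Without C5 it was −0.13. TXNIP, a thioredoxin-binding protein that restrains glucose uptake, had 91.4, 191, 147 and 90.9 CPM at 2 mM, against 511, 242, 156 and 123 CPM at 1 mM (log2 fold change −0.82, SE 0.43). It was lower in 4 of 4 lines, with most of the difference in C5, and without C5 the log2 fold change was −0.30.

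**Figure D4:**
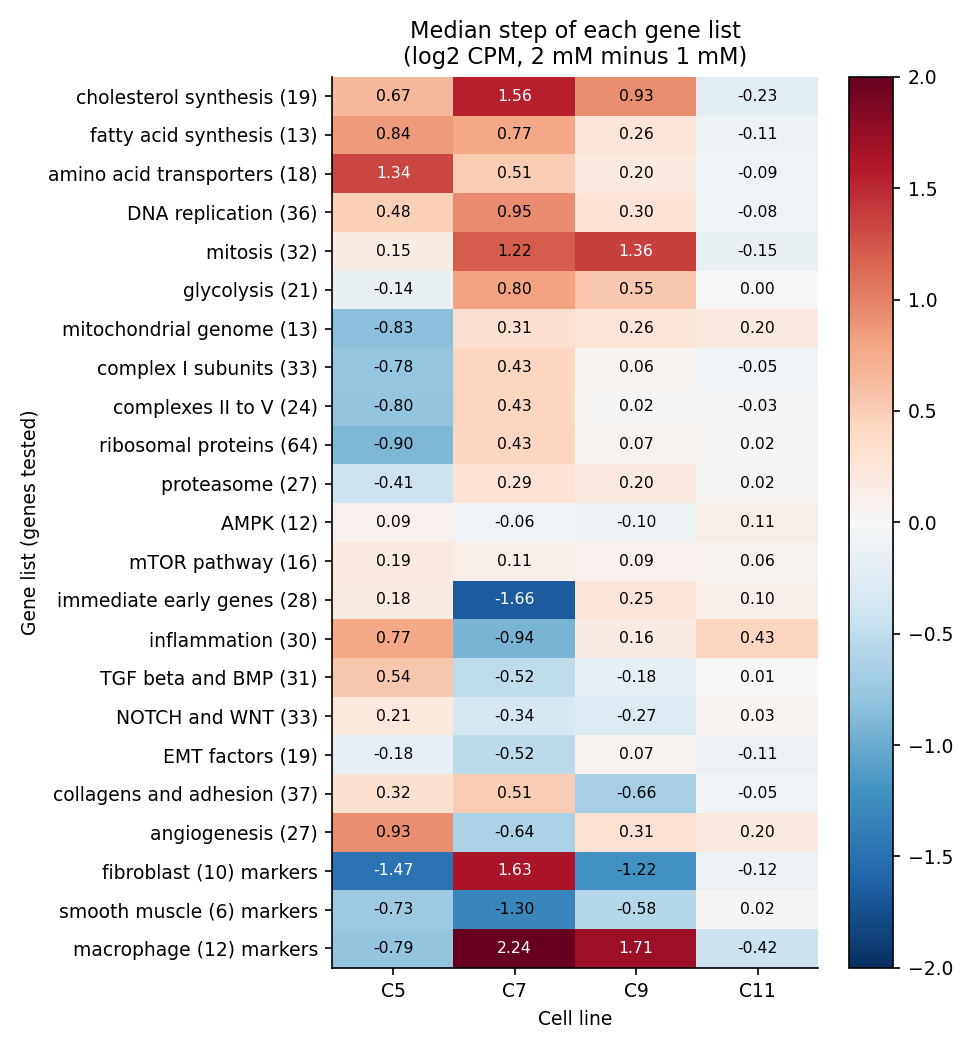
Median difference between the 2 mM and the 1 mM library, in log2 CPM, for lists of pathway genes and of cell type markers (rows, number of tested genes in parentheses) in each cell line (columns). Red is higher at 2 mM and blue is lower, with the deepest colours at 2 and −2 and beyond. Cholesterol synthesis runs from 1.56 in C7 to −0.23 in C11, ribosomal proteins are −0.90 in C5, and the C11 values lie between −0.42 and 0.43.

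Amino acid transporter genes were higher in 16 of 18 members tested, with a median of 0.41. The line medians were 1.34 (C5), 0.51 (C7), 0.20 (C9) and −0.09 (C11), and 7 of 18 were higher in C11. SLC6A9, a glycine transporter that is also on the list of the integrated stress response, had 158, 132, 194 and 131 CPM at 2 mM, against 90.6, 98.2, 65.6 and 121 CPM at 1 mM (log2 fold change 0.70, SE 0.27), and the groups did not overlap. The same held for 0.515% of all genes tested. SLC6A9 was picked for the smallest p of both lists, so the lack of overlap is no result. SLC1A4, a carrier of alanine and serine, had 22.3, 19.6, 23.4 and 6.86 CPM at 2 mM, against 5.53, 10.9, 21.0 and 6.07 CPM at 1 mM (log2 fold change 0.76, SE 0.37). Without 1 line the log2 fold change of SLC6A9 was 0.43 (C9) and that of SLC1A4 was 0.38 (C5). Of 21 genes of the integrated stress response, 17 were higher, with a median of 0.19 and line medians of −0.01 (C5), 0.64 (C7), 0.15 (C9) and 0.07 (C11), and SLC6A9 was the only one with an unadjusted p under 0.05. Of 21 endoplasmic reticulum stress genes, HSP90B1, the chaperone of that compartment, had the smallest p, with 324, 162, 260.0 and 280.0 CPM at 2 mM, against 523, 294, 432 and 295 CPM at 1 mM (log2 fold change −0.61, SE 0.21).

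Other genes picked for small p-values and a higher level at 2 mM in 4 of 4 lines have varied roles. CPN2 (chromosome 9, 13071475 to 13073741), the regulatory subunit of carboxypeptidase N, had 19.3, 29.3, 14.5 and 35.2 CPM at 2 mM, against 6.85, 13.2, 4.17 and 21.8 CPM at 1 mM (log2 fold change 1.26, SE 0.28). It was the higher gene with a symbol and the smallest p, and in DESeq2 with the block its adjusted p was 0.384. KREMEN1, a receptor that restrains WNT signaling with its ligand DKK1, had 19.6, 18.6, 12.6 and 5.13 CPM at 2 mM, against 9.03, 3.51, 4.37 and 3.88 CPM at 1 mM (log2 fold change 1.34, SE 0.38). KREMEN1 was far higher in C5, C7 and C9 at 2 mM, and the C11 difference was smaller (0.40 log2 units). IGSF3, a membrane protein of the immunoglobulin family, had 288, 223, 342 and 206 CPM at 2 mM, against 176, 139, 229 and 163 CPM at 1 mM (log2 fold change 0.56, SE 0.18). TNFRSF8, which encodes the receptor CD30, had 4.05, 2.23, 5.96 and 4.10 CPM at 2 mM, against 1.93, 1.14, 2.70 and 2.33 CPM at 1 mM (log2 fold change 0.98, SE 0.32). C11orf52 had 21.4, 17.3, 17.4 and 31.6 CPM at 2 mM, against 8.62, 10.3, 8.44 and 22.1 CPM at 1 mM (log2 fold change 0.88, SE 0.25).

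In the NOTCH and WNT list 21 of 33 genes were lower, 4 in 4 of 4 lines, with a median of −0.24. The line medians were 0.21 (C5), −0.34 (C7), −0.27 (C9) and 0.03 (C11), and 19 of 33 genes were higher in C5 and 19 in C11. HES1, a repressor induced by NOTCH, had 5.28, 37.0, 7.66 and 8.74 CPM at 2 mM, against 49.5, 102, 14.0 and 8.02 CPM at 1 mM (log2 fold change −1.35, SE 0.55), with C11 almost level. Without C5 it was −0.76. Of 31 TGF beta and BMP genes 20 were lower, with a median of −0.10 and 0 at an unadjusted p under 0.05. By line, 22 of 31 were higher in C5 (median 0.54), 9 in C7 (−0.52), 12 in C9 (−0.18) and 16 in C11 (0.01). ID3, a target of BMP signaling, had 53.5, 71.8, 62.8 and 72.2 CPM at 2 mM, against 61.4, 164, 71.3 and 102 CPM at 1 mM (log2 fold change −0.54, SE 0.24). It was lower in 4 of 4 lines, and the value without C7 was −0.30. SMAD3, which carries the TGF beta signal to the nucleus, had 96.6, 107, 75.8 and 62.8 CPM at 2 mM, against 34.7, 55.2, 81.1 and 49.5 CPM at 1 mM (log2 fold change 0.65, SE 0.29). Without C5 it was 0.39. In the hypoxia list LOX, which crosslinks collagen, had 148, 18.8, 61.0 and 6.01 CPM at 2 mM, against 19.6, 5.12, 18.7 and 7.35 CPM at 1 mM (log2 fold change 1.57, SE 0.52). NDRG1, another gene of that list, had 64.1, 87.3, 41.3 and 33.6 CPM at 2 mM, against 94.0, 114, 62.9 and 46.5 CPM at 1 mM (log2 fold change −0.52, SE 0.18). The pair went in opposite directions, with LOX higher in 3 of 4 lines and NDRG1 lower in 4 of 4.

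Immediate early genes were mostly lower at 2 mM in C7. Of 28 tested, 25 were lower at 2 mM in C7, with a median of −1.66, while 15, 19 and 18 were higher in C5, C9 and C11. FOS, a subunit of the AP-1 transcription factor, had 35.6, 67.4, 57.8 and 82.3 CPM at 2 mM, against 64.8, 360.1, 58.7 and 80.4 CPM at 1 mM (log2 fold change −0.81, SE 0.44). The 1 mM library of C7 was the high one, and the other 7 lay between 35.6 and 82.3 CPM. JUN, the partner of FOS, had 469, 822, 761 and 730.5 CPM at 2 mM, against 626, 3559.9, 701 and 833 CPM at 1 mM (log2 fold change −0.65, SE 0.41). DUSP1, a phosphatase that switches off MAP kinases and shares exonic bases with a microRNA gene, had 132, 130.0, 193 and 356 CPM at 2 mM, against 261, 1607, 132 and 368 CPM at 1 mM (log2 fold change −0.93, SE 0.70). JUN and DUSP1 were picked after their values were seen. C7 at 1 mM was far above the rest for both. Without C7 the log2 fold changes were −0.29 for FOS, −0.17 for JUN and −0.16 for DUSP1, and that of DUSP1 was −1.50 without C9. SLC6A17, a transporter of neutral amino acids, had 5.12, 2.32, 5.88 and 8.03 CPM at 2 mM, against 0.790, 28.0, 0.687 and 6.95 CPM at 1 mM (log2 fold change 0.85, SE 1.24). It was higher at 2 mM in C5, C9 and C11 and lower in C7. Its fitted value was −0.81 without the block, −0.05 without C5, 2.00 without C7, −0.13 without C9 and 1.3 without C11.

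Markers of other cell types differed in direction between lines. The 10 fibroblast markers were higher at 2 mM in C7 (10 of 10, median 1.63) and mostly lower in C5 (8 of 10, median −1.47), C9 (8 of 10, median −1.22) and C11 (9 of 10, median −0.12). COL1A1, a chain of type I collagen, had 4593, 18665, 3864 and 9121 CPM at 2 mM, against 29280.0, 4664, 6696 and 9396 CPM at 1 mM. COL3A1, the chain of type III collagen, whose exons overlap those of another gene, had 2169, 2339.5, 1535 and 1697 CPM at 2 mM, against 8724, 390.2, 4298 and 2437 CPM at 1 mM. DPT, a dermal matrix protein, had 7.36, 11.5, 0.504 and 5.27 CPM at 2 mM, against 161, 0.176, 2.63 and 8.21 CPM at 1 mM. COL1A1, COL3A1 and DPT had no common direction, with C7 opposite to C5 and C9. Of 12 macrophage markers tested, 11 were higher at 2 mM in C7 (median 2.24) and 11 in C9 (median 1.71), against 3 in C5 and 2 in C11. Their summed level was 74.7, 132, 85.6 and 241 CPM at 2 mM, against 133, 88.4, 58.6 and 268 CPM at 1 mM. CTSS, the marker with the highest level, differed by −0.49 (C5), 0.35 (C7), 0.46 (C9) and −0.19 (C11) log2 units. The medians of C7 and C9 thus rest in part on markers with few counts. The complement genes C1QA and C1QB were at 0 in at least 1 library of each dose. SPI1, a transcription factor of myeloid cells that also came up among the 12 genes higher in 4 of 4 lines, had 9.88, 8.36, 6.17 and 49.8 CPM at 2 mM, against 5.53, 2.13, 2.58 and 43.8 CPM at 1 mM (log2 fold change 1.03, SE 0.35). In bulk libraries fewer cells of a type and less RNA per cell cannot be told apart.

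Of 6 smooth muscle markers tested, 5 were lower in C7 (median −1.30), 4 in C5 (−0.73), 4 in C9 (−0.58) and 3 in C11 (0.02). CNN1, which encodes calponin, had 3.29, 8.45, 2.01 and 11.1 CPM at 2 mM, against 5.15, 42.7, 5.69 and 12.8 CPM at 1 mM (log2 fold change −1.19, SE 0.41), lower in 4 of 4 lines. Without C7 this was −0.78. TAGLN, an actin-binding protein of contractile cells, had 175, 661, 221 and 373 CPM at 2 mM, against 309, 1566, 251 and 309 CPM at 1 mM (log2 fold change −0.51, SE 0.30), and C7 had the highest level at both doses. Without C7 its log2 fold change was −0.25. By their medians, cholesterol synthesis and mitosis genes were higher in C7 together with fibroblast and macrophage markers. In C9 they were higher with macrophage markers higher and fibroblast markers lower. In C5 cholesterol synthesis genes were higher with both marker lists lower. The mitosis median in C5 (0.15) lay near that of all genes (0.05), and the summed mitosis level was 983 CPM at 2 mM against 1155 CPM at 1 mM. Of 5 epithelial markers tested, 5 were higher at 2 mM in C9 (median 1.08) and 0 in C7 (−0.65). In C5 1 was higher (median −0.76) and in C11 2 (−0.20). The part of these marker lists in the other results was not tested.

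**Figure D5:**
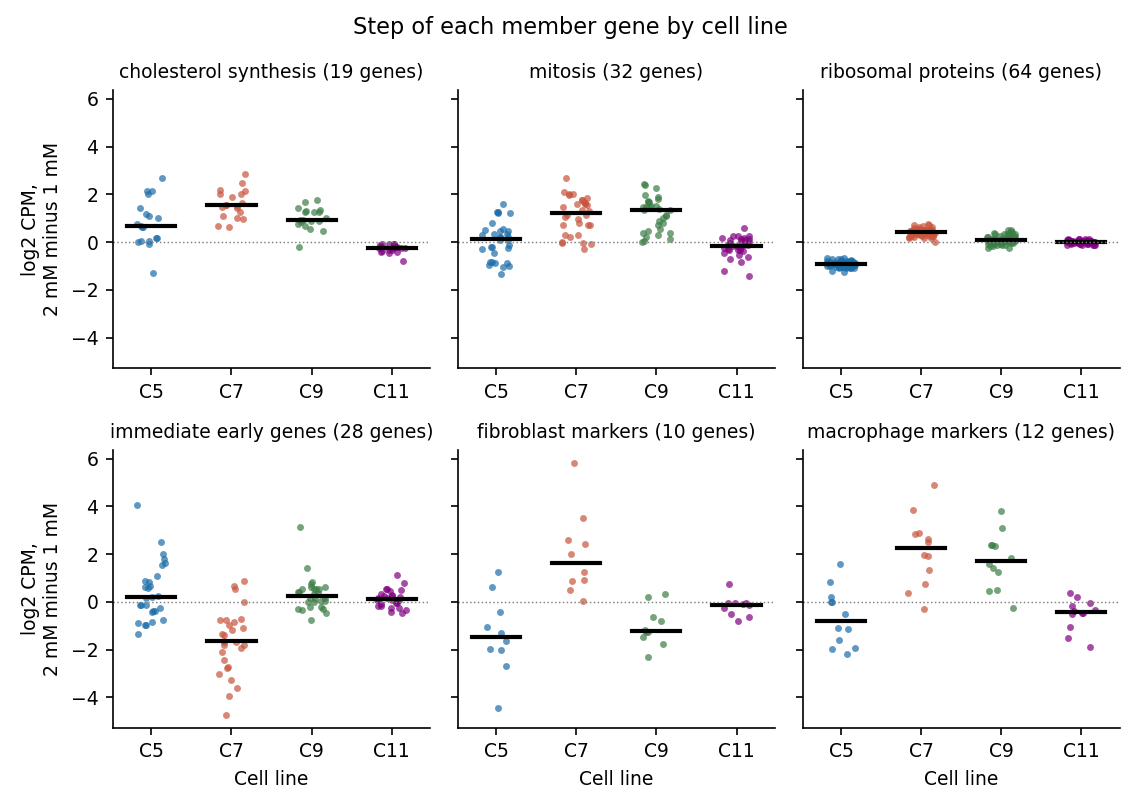
Difference between the 2 mM and the 1 mM library in log2 CPM for each tested gene of 6 lists, 1 point per gene, by cell line, with the median as a black bar. Cholesterol synthesis genes lie above 0 in C7 (19 of 19) and below 0 in C11 (19 of 19). Ribosomal proteins lie below 0 in C5 (64 of 64), immediate early genes mostly below 0 in C7 (25 of 28), and fibroblast markers above 0 in C7 (10 of 10).

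The remaining genes that earlier results of the series had singled out were spread over lines. PRKAR1B, a regulatory subunit of protein kinase A, had 7.69, 11.7, 7.37 and 7.35 CPM at 2 mM, against 23.9, 10.7, 18.1 and 12.1 CPM at 1 mM (log2 fold change −0.91, SE 0.36), lower in 3 of 4 lines. TNFRSF18, a receptor of the TNF family, had 6.38, 3.61, 10.6 and 4.36 CPM at 2 mM, against 2.12, 2.06, 2.23 and 4.78 CPM at 1 mM (log2 fold change 1.11, SE 0.47), higher in 3 of 4 lines. Without C9 it was 0.73. MMP7, the protease matrilysin, had 0.767, 1.08, 0.106 and 0.911 CPM at 2 mM, against 10.9, 0, 0.343 and 3.85 CPM at 1 mM (log2 fold change −1.41, SE 1.60), and its C7 library at 1 mM held 0 counts. That value was −0.20 without C5, −2.65 without C7 and −0.91 without C11. MMP9, a gelatinase, was not among those genes and was picked for a small p on the matrix remodelling list. It had 73.6, 211, 40.2 and 384 CPM at 2 mM, against 74.5, 78.3, 9.72 and 342 CPM at 1 mM (log2 fold change 0.88, SE 0.39), almost level in C5 and higher at 2 mM in C7, C9 and C11. Without C9 it was 0.50.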

How the data were processed

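Total RNA of 8 libraries, 1 per cell line at 2 and at 1 mM metformin, was analysed. According to the methods and the submitters' processing notes, the authors aligned stranded single-end mRNA reads to GRCg6a with HISAT2 2.1.0 and featureCounts then gave strand-specific counts over exons. A read over several genes was counted for each, so DUSP1, COL3A1 and PRKAB2 share exonic bases with another gene on their strand. The authors deposited raw counts per gene and library, and exonic length as an other column of the same deposited table. The deposited tables of the authors' own comparisons with untreated cells hold fold changes and p-values and were not used.

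edgeR 4.0.16 in R 4.3.3 was used for the main test (quasi-likelihood, two-sided, TMM, filterByExpr), with DESeq2 1.42.0 and limma 3.58.1 beside it, on the 8 libraries with the cell line as a block. P-values were adjusted by Benjamini-Hochberg over all genes tested. Log2 CPM used a prior count of 1. Each line comes from 1 hen, which pairs its libraries. The check on deviations from the dose means gave correlations of −0.141 (C5), 0.161 (C7), 0.703 (C9) and 0.713 (C11), and a median of −0.213 between lines (12 pairs, −0.624 to 0.645). The values of C5 and C7 lay within the range between lines, so the check did not bear out the pairing for these lines. The fits were tested on simulated data.

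Depth was 34724071 to 42531887 counts per library. The doses of a line were given in separate wells of cells from that line. In the fits with the block, p-values set the dose difference against its own variation from line to line. Gene symbols are those of the deposited table, where 10393 of 23910 genes have none.

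The members and the gene lists (35 of pathways and 9 of cell type markers) were chosen with earlier results of these data known. Named genes were up to 12 per direction with the smallest p, a symbol, a mean CPM of 1 or more and the same direction in 4 lines, up to 5 per direction with the largest fold change at an unadjusted p under 0.01 and a mean count of 20 or more, up to 3 per pathway list with the smallest p, and 9 genes from earlier results. Not all of these are described, and some genes are not reported here. Alternatives were no replicate block, DESeq2 with and without it, limma-voom, RLE scaling, filtering at a mean of 1 CPM or not at all, a fold change limit of 1 on the log2 scale, the length slope as a covariate with the block, and each line left out. Counts of list members by line under other scalings were added after seeing the data.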

Additional observations from a re-analysis of the deposited data

Results flagged for a closer look

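Within each dose the 4 lines were compared with each other for the genes named above and for 3 library measures, and a line was singled out where it lay far from the other 3 (gap over range above Dixon's 95% critical value). This picked out 14 of 140 groups, and chance alone picks about 1 group in 20. No cause was tested.

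At 2 mM, GPAT3 was low in C7 (111 CPM, against 185 to 191 CPM in the other lines), MT-ND2 was high in C7 (3015 CPM, others 1605 to 1688 CPM) and PRKAR1B was high in C7 (11.7 CPM, others 7.35 to 7.69 CPM). MCEE was high in C11 (1.85 CPM, others 1.20 to 1.25 CPM), SLC1A4 was low in C11 (6.86 CPM, others 19.6 to 23.4 CPM) and MMP7 was low in C9 (0.106 CPM, others 0.767 to 1.08 CPM).

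At 1 mM, JUN was high in C7 (3559.9 CPM, others 626 to 833 CPM), and so was TAGLN (1566 CPM, others 251 to 309 CPM). In C5 GPI (763 CPM, others 396 to 408 CPM) and LDHA (2883 CPM, others 1454 to 1605 CPM) were high. In C11 TNFRSF18 was high (4.78 CPM, others 2.06 to 2.23 CPM), and C1QB had 0.561 CPM while the other lines had 0 counts. RASA4B was low in C9 (14.7 CPM, others 31.1 to 34.2 CPM). The length slope of the C9 library was 0.259, against −0.170 to −0.105 in the other lines.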

How the results depend on the processing

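The count of 0 genes called held in edgeR, DESeq2 and limma-voom, with and without the replicate block where both were run (edgeR and DESeq2), under RLE scaling, without a count filter, with a mean of at least 1 CPM, with a least absolute log2 fold change of 1, with the replicate block and the length slope, and without each line. The number of genes at an unadjusted p under 0.05 was 258 with the replicate block and 192 with no replicate block. It was 550 with DESeq2 and the replicate block and 395 with the replicate block and the length slope, and it ran from 135 (without C9) to 393 (without C7) when a line was left out. The cause of these differences was not tested. DESeq2 with the block tested 19222 genes in place of 13391. In edgeR without a count filter 19222 genes were also tested, and 323 had an unadjusted p under 0.05. DESeq2 with no replicate block tested 19069 genes and had 378. With library totals alone, the median difference of all genes moved from 0.05 to 0.23 in C5 and from 0.01 to −0.23 in C7.

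Of the 67 genes followed, 63 kept the sign of their log2 fold change under every alternative. Many of them were picked for a small p or for a shared direction in 4 of 4 lines. Such picking favours a kept sign, so this count is no measure of stability. The share over all genes is not given here. SLC6A17 reversed with no replicate block (−0.81 in edgeR, −0.81 in DESeq2), in limma-voom (−0.16), and without C5 (−0.05) or C9 (−0.13). With the replicate block and the length slope COL1A1 was at 0.068, against −0.40 with the block alone. With a line left out, COL1A1 ran from −1.15 (without C7) to 0.35 (without C5), COL3A1 from −1.35 to 0.070 and DPT from −2.49 to 0.22 in the same way, and SLC6A17 reached 2.00 without C7. With 4 lines at 1 library per dose, differences between doses that were small beside their own variation from line to line could not be detected.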

Other observations

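Genes of inflammation had no common direction over the lines. Of 30 tested, 17 were higher at 2 mM and 13 lower, 1 had an unadjusted p under 0.05 (IL11, lower), and the line medians were 0.77 (C5), −0.94 (C7), 0.16 (C9) and 0.43 (C11). The interferon response list was also higher in C5 (median 0.68, 15 of 17 genes) and lower in C7 (median −0.44, 5 of 17 higher), with 0 genes at an unadjusted p under 0.05. Heat shock genes had a median of −0.37 in C7, against 0.22 (C5), 0.20 (C9) and 0.02 (C11). Their summed level was 20179 CPM in the 1 mM library of C7, against 4274 to 9852 CPM in the other libraries. The same library held 11416 CPM of immediate early genes, against 2544 to 4383 CPM in the others. Circadian clock genes had a median of −0.66 in C7, against 0.28 in C5. The proteasome list was lower in C5 (median −0.41, 4 of 27 higher) and higher in C7 (median 0.29, 21 of 27 higher). Cell cycle brakes lay near the level of all genes, with 10 of 22 higher and a median of −0.03. Granulosa markers were lower in 6 of 6 genes in C7 and higher in 5 of 6 in C5. Tests of these lists were not run.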
